A study of Mus musculus with 2 samples.

Results

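Septins are GTP-binding proteins that assemble into rods, filaments and rings beneath membranes. A rod is built from septins of different homology groups, and members of 1 group can replace each other within it. In the mammalian testis they are best known for the annulus, a septin ring of the sperm tail that lies between the midpiece, which carries the mitochondria, and the principal piece. The 7 genes described here are Sept4, Sept12 and Sept14, which are known for roles in male germ cells, and the widely expressed Sept2, Sept6, Sept7 and Sept9. They were chosen by name, not by their level, though with earlier results of these data known. They are 7 of the 43346 genes in the deposited tables. Each was found once by matching gene identifiers to the GENCODE names of the mm10 assembly. Newer releases call them Septin2, Septin4 and so on.

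The study sequenced polyA RNA from the testis of 1 adult male mouse of the inbred strain C57BL/6J, aged 10 weeks, with no treatment or genetic change given in the labels. There was 1 group, and its 2 libraries are technical replicates of 1 biological replicate. Replicate 2 was made later, in May 2015, per the labels. Values are given in the order replicate 1 and replicate 2, and every SD is over n = 2 technical libraries, so it holds no spread between animals. The expected counts summed to 31995377 and 20675551. The libraries differed far beyond sampling noise, with a chi-square of 577 per gene where noise alone gives about 1, and were not copies. A gene counted as detected if neither library fell below 1 TPM, the deposited measure of transcript abundance scaled for length and depth. All 5 germ cell markers were detected, with summed levels of 5907 and 20650 TPM, but they did not move together. Tnp1 (1007.8 and 9611 TPM) and Prm1 (3011 and 10087 TPM), which act in late spermatids, were past 2-fold higher in replicate 2. Ddx4 (692.2 and 318.5 TPM) and Sycp3 (807.5 and 262.7 TPM), of earlier germ cells, were past 2-fold lower. Acrv1 (388.2 and 371.9 TPM) did not reach 2-fold, and its log2 ratio of -0.42 was the median of the 5. Markers of Sertoli cells (942.1 and 1142 TPM), Leydig cells (399.9 and 1975 TPM) and red blood cells (26.73 and 205.5 TPM) were all detected too, and the Leydig cell difference lay in Insl3 (83.19 and 1630 TPM). Peritubular markers (3 of 3 detected) summed to 16.27 and 88.65 TPM, endothelial markers (2 of 3) to 3.85 and 6.49 TPM, and macrophage markers (1 of 3) to 3.42 and 21.65 TPM. Epididymis markers (2 of 3 detected) summed to 60.03 and 23.97 TPM. Of these, Crisp1 reached 53.80 and 19.31 TPM and Rnase10 6.23 and 4.66 TPM, while Lcn5 was at 0 in both libraries. In bulk tissue, fewer cells of a type and less RNA per cell cannot be told apart. Markers were also set against the median log2 ratio of genes of like GC content, as done below. Differences from it were -0.19 for Ddx4, -0.22 for Sycp3, 0.29 for Acrv1, 2.98 for Tnp1, -0.15 for Prm1 and -1.22 for Insl3. The other Leydig cell markers lay at -0.20 (Cyp17a1), 0.30 (Star) and 0.39 (Hsd3b1). Among the remaining markers, those past 2-fold from it were Hbb-bs (3.18), Acta2 (2.17), C1qb (1.43), Rhox5 (1.14), Tagln (1.07) and Cldn11 (-1.27). What made the markers differ between the libraries was not tested.

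Start regions of 3 genes show how differently the sequence is built where these genes begin. RefSeq windows on GRCm38.p6 reach from 250 bases before a start to 50 after it. They are printed on the gene's strand with each CG dinucleotide in capitals. For each printed window a deposited transcript begins within 50 bases of the RefSeq start. Other windows of these 3 genes and of Sept9 also meet this rule. Which of them to print was a choice, and the CG counts of the others follow below. Windows of 6 of the 7 septins are in the table, and 4 of these genes have such a match.
Sept12, chr16:4997803-4998102, minus strand: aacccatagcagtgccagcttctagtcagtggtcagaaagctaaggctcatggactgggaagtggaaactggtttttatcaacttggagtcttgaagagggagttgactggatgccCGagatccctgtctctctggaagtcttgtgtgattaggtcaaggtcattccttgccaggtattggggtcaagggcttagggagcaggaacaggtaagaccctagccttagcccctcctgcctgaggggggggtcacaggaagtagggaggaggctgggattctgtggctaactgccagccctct
Sept4, chr11:87578139-87578438, plus strand: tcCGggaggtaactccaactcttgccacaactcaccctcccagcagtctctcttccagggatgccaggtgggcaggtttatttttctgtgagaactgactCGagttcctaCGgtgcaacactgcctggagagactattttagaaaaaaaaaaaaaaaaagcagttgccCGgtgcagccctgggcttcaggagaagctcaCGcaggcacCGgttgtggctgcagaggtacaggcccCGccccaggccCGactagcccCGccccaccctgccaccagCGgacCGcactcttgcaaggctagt
Sept2, chr1:93478743-93479042, plus strand: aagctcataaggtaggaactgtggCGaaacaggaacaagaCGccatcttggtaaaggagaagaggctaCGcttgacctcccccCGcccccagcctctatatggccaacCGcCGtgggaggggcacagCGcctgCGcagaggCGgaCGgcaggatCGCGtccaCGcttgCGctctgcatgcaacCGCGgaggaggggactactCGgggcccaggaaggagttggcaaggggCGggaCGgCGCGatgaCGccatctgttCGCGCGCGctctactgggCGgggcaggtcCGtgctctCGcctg

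The Sept12 window held 1 CG, and only 5.43% of 32851 RefSeq mouse windows of this length held fewer. The Sept4 window held 11, with fewer in 58.6% of windows, and the Sept2 window held 29, with fewer in 87.1%. The median over all windows was 7. Windows of other RefSeq starts of the matched genes held 2 CG in Sept12, 1, 13 and 5 in Sept4, 36 in Sept2, and 31, 18, 5 and 15 in Sept9, so the starts of 1 gene can differ widely. The letters TGACG, the core of the cAMP response element bound by the germ cell activator CREM, were searched on both strands. They were found in the Sept2 window and in neither of the other windows, while 20.8% of all windows hold them. Such a match describes letters only. The start of Sept12 lay 0 bases from that of its single deposited transcript. The start of Sept4 lay 12 bases from that of Sept4-205, and the start of Sept2 coincided with that of Sept2-216.

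All 7 septins were detected. Sept12 (ENSMUSG00000022542.6, chr16:4986858-4997852, minus strand) belongs to the SEPT3 group and is needed for a normal annulus. Its level was 35.82 and 157.47 TPM, a mean of 96.64 ± 86.0 TPM (SD, n = 2). It stood at percentile 83.6 and 94.2 among protein-coding genes. It was the highest of all septins in replicate 2 and the sixth in replicate 1. Behind these levels were 1856 and 5168 expected counts.

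Sept4 (ENSMUSG00000020486.14, chr11:87568903-87590539, plus strand), of the SEPT2 group, is required for the annulus, and mice that lack it have immotile sperm. It reached 38.50 and 140.45 TPM (89.47 ± 72.1, SD, n = 2), from 538 and 1532 expected counts. Its TPM was close to that of Sept12 in both libraries, although it had far fewer reads. The reads of Sept4 fell partly on short transcripts, which are described below. Sept14 (ENSMUSG00000034219.11, chr5:129683391-129708512, minus strand), a SEPT6 group member expressed mainly in testis, reached 37.55 and 28.17 TPM (32.86 ± 6.63, SD, n = 2). Unlike Sept4 and Sept12 it was not higher in replicate 2.

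Sept7 (ENSMUSG00000001833.12, chr9:25252439-25308571, plus strand) is the sole member of its group and a part of septin rods in most cells, the annulus included. It reached 116.26 and 37.17 TPM (76.72 ± 55.9, SD, n = 2). Sept2 (ENSMUSG00000026276.13, chr1:93478964-93510260, plus strand), a widely expressed relative of Sept4, was the highest of the 7 by mean, at 270.25 and 138.17 TPM (204.2 ± 93.4, SD, n = 2). Sept2 stood at percentile 97.4 and 93.3 among protein-coding genes, and Sept7 at 93.4 and 80.1. Both were lower in replicate 2.

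Sept6 (ENSMUSG00000050379.11, X chromosome, 36911326 to 36991794, minus strand), a widely expressed relative of Sept14, reached 26.12 and 25.69 TPM (25.91 ± 0.304, SD, n = 2). It was the member with the smallest spread in TPM. Sept9 (ENSMUSG00000059248.9, chr11:117199661-117362325, plus strand), a widely expressed relative of Sept12 that acts in cell division, was the lowest member by mean, at 4.98 and 27.06 TPM (16.02 ± 15.6, SD, n = 2). Sept9 moved from percentile 60.4 to 75.7 among protein-coding genes.

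**Figure D1:**
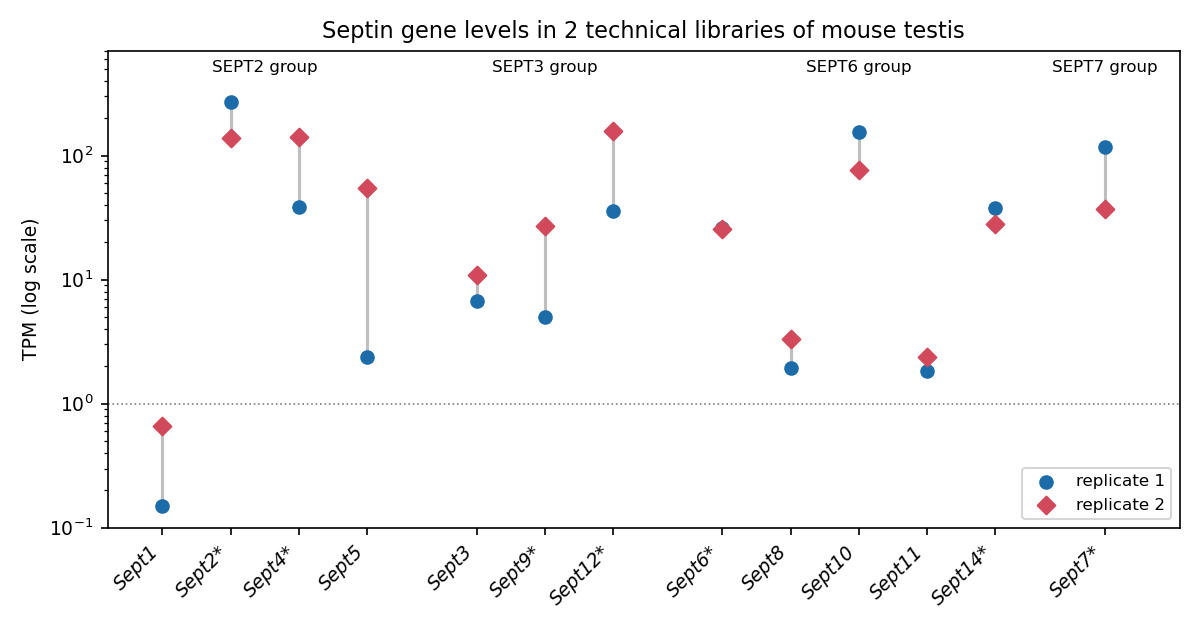
Level of each of 13 septin genes in TPM (vertical axis, log scale) in replicate 1 (blue circles) and replicate 2 (red diamonds), arranged by homology group, with the 7 described genes marked by an asterisk and 1 TPM as a dotted line. Sept12, Sept4 and Sept9 lie higher in replicate 2, Sept2 and Sept7 lie higher in replicate 1, and the Sept6 points lie on top of each other.

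The order of the 7 levels was only partly shared by the libraries. Of 21 pairs of members, 14 had the same order in both. Over all 13 septins the order in replicate 1 was Sept2, Sept10, Sept7, Sept4, Sept14, Sept12, Sept6, Sept3, Sept9, Sept5, Sept8, Sept11 and Sept1. There the exact counting interval of the ratio included 1 for the neighbours Sept4 and Sept14, Sept14 and Sept12, Sept5 and Sept8, and Sept8 and Sept11. In replicate 2 the order was Sept12, Sept4, Sept2, Sept10, Sept5, Sept7, Sept14, Sept9, Sept6, Sept3, Sept8, Sept11 and Sept1. There it included 1 for Sept4 and Sept2, Sept14 and Sept9, and Sept9 and Sept6. These 95% intervals (Clopper-Pearson) are computed from the read counts and cover the counting error of reads only. PCR copies of a molecule were not marked and can be counted more than once, which the intervals do not cover. Neighbours that counting error tells apart within a library could still change places between libraries, as Sept7 and Sept4 did.

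Of the other 6 septins, 5 were detected in both libraries. Sept10, a widely expressed SEPT6 group gene, reached 154.95 and 76.38 TPM and lay above Sept14 and Sept6 in both. Sept3, best known from neurons, stood at 6.67 and 10.96 TPM, and Sept5, also best known from neurons, at 2.38 and 54.89 TPM. Sept5 overlaps Gp1bb, a platelet receptor gene, and the authors' counts are not stated to use strand. The model assigned 100.26 and 1464.02 counts to Sept5 and 30.74 and 119.98 to Gp1bb. Sept8 (1.93 and 3.34 TPM) and Sept11 (1.82 and 2.39 TPM) were low, and Sept1, a lymphocyte-rich septin, held only 2 and 6 counts.

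Summed by homology group, the SEPT2 group (Sept1, Sept2, Sept4 and Sept5) held 311.3 and 334.2 TPM, or 44.6% and 47.5% of all septin TPM. The sum was similar in the libraries while its make-up was not, since Sept2 was lower and Sept4 and Sept5 higher in replicate 2. The SEPT3 group (Sept3, Sept9 and Sept12) held 47.47 and 195.5 TPM, or 6.81% and 27.8%. The SEPT6 group (Sept6, Sept8, Sept10, Sept11 and Sept14) held 222.4 and 136.0 TPM, or 31.9% and 19.3%. Sept7 alone made up 16.7% and 5.29%. The summed level of all 13 septins was 697.4 and 702.8 TPM, of which the 7 described genes held 529.5 and 554.2.

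**Figure D2:**
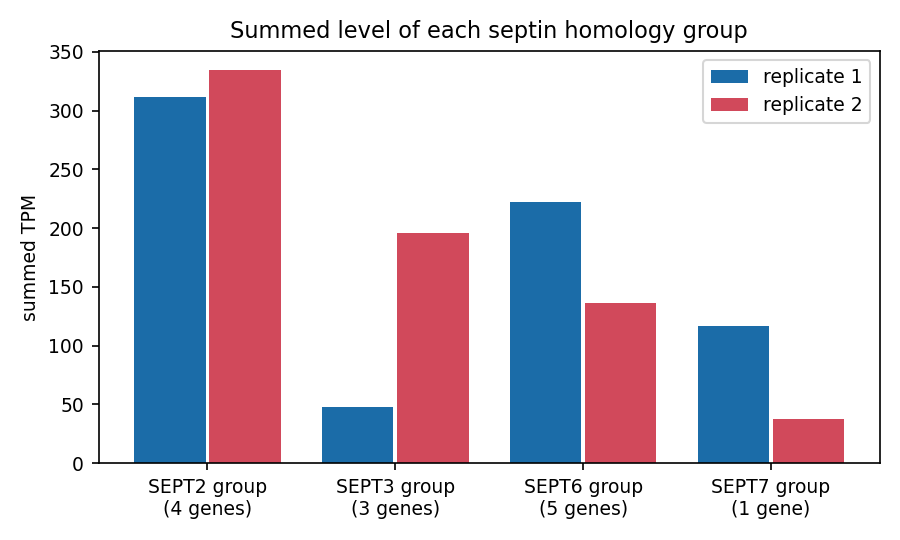
Summed TPM (vertical axis, from 0) of the septin genes of each homology group in replicate 1 (blue) and replicate 2 (red), 1 library per bar. The SEPT2 group holds 311.3 and 334.2 TPM, whereas the SEPT3 group holds 47.47 and 195.5 and Sept7 holds 116.3 and 37.17.

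Sept4, Sept12 and Sept14 together made up 16.0% and 46.4% of septin TPM, with a mean of 31.2% ± 21.5 (SD, n = 2). The wide gap between the libraries rests on Sept4 and Sept12, since Sept14 was not higher in replicate 2. Each of the 3 was then set against a widely expressed relative of its own group, per length and within each library. The ratio was called different from 1 where the exact counting interval excluded 1 on the same side in both libraries. Sept12 exceeded Sept9 by a log2 ratio of 2.85 (2.69 to 3.01) and 2.54 (2.45 to 2.63), which is 7.19-fold and 5.82-fold, and this was the only one of the 3 ratios called.

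Sept4 stood far below Sept2 in replicate 1, at a log2 ratio of -2.81 (-2.94 to -2.69), whereas in replicate 2 the ratio of 0.02 (-0.06 to 0.11) was within counting error of equal levels. Without short transcripts, counting only those of 1000 bases or more, Sept4 was below Sept2 in both libraries, at -4.08 and -0.53. Sept14 exceeded Sept6 slightly in replicate 1, at 0.52 (0.41 to 0.64), and by 0.13 (-0.04 to 0.30) in replicate 2. With transcripts of 1000 bases or more the ratio of Sept14 to Sept6 turned, to -0.46 and -0.74, because the leading Sept14 transcript has 879 bases. The ratio of Sept12 to Sept9 was 2.84 and 2.58 under the same limit.

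Coding sequences were compared using the model with the longest coding sequence of each gene, over aligned bases with gaps left out. They were 60.7% to 72.5% identical over the 21 pairs, with Sept12 and Sept9 the most alike. For Sept12 and Sept9 this covers 944 aligned bases, out of 951 and 1749 coding bases. The models used for Sept9 (Sept9-202) and Sept4 (Sept4-201) were listed at 0 counts in both libraries. Sept2 and Sept4 were 69.8% identical, and Sept14 and Sept6 68.4%. The longest run of bases shared by transcripts of any 2 members was 19, between Sept6 and Sept7. The authors' posterior SD of the gene count was 0 reads for all 7 in both libraries. The uncertainty in the authors' estimates lay between transcripts of the same gene.

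The deposited tables hold 55 transcripts of the 7 genes, of which 14 had 0 counts in both libraries. The transcript that took the highest percent of its gene's TPM was the same in both libraries for 6 of 7 genes. Sept4 was the exception. Sept12 had 1 listed transcript, Sept12-201 (ENSMUST00000170323.2, 2576 bases, 951 of them coding), and Sept7-202 took 100% of Sept7 in both libraries. For these 2 genes the transcript share says little about isoforms, because GENCODE M21 adds 3 Sept12 models and 8 of its 10 Sept7 models to those in the tables.

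Sept4 has 18 transcripts, and their shares differed most between the libraries. Sept4-217, a processed transcript of 535 bases at the 3′ end of the gene, took 68.56% of Sept4 TPM in replicate 1 and 12.10% in replicate 2. Sept4-205, which codes for protein and begins at the window printed above, took 22.05% and 11.98%. Sept4-206, which begins in the same region, was listed at 0 counts in replicate 1 and took 28.99% in replicate 2. The authors' posterior SD of that 0 was 11.11 reads, and the count in replicate 2 was 626.63 with a posterior SD of 42.23.

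Sept4-207 begins farther upstream, at position 87568903 on chromosome 11, and has 666 bases. It took 5.27% and 32.83% of Sept4 TPM, from 21.05 and 307.48 counts. Its start lies inside Gm11492, a gene of unknown role on the same strand that reached 48.46 and 71.32 TPM. The posterior SD of the gene count was 0 reads for both Sept4 and Gm11492 in each library. The authors' model thus left no reads uncertain between these 2 genes. The retained intron form Sept4-218 took 0% and 10.62%.

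Transcripts whose starts lay within 1500 bases of each other were also joined into start regions, which puts Sept4 into 5. The region of Sept4-205 and Sept4-206 held 57.9% and 66.1% of Sept4 reads. In TPM it held less, 25.5% and 42.6%, since TPM divides by length and the other regions with many reads hold short forms. The region at the 3′ end held 37.4% of reads and 69.0% of TPM in replicate 1, against 5.99% and 12.8% in replicate 2. The upstream region of Sept4-207 held 3.91% of reads and 5.27% of TPM in replicate 1, against 20.1% and 32.8% in replicate 2.

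Sept9 also has several starts, in 8 regions. Sept9-205, a long form of 3869 bases, took 76.17% and 43.87% of Sept9 TPM. The shorter Sept9-204, which begins downstream and has 1002 coding bases against 1695, took 7.46% and 33.55%. From posterior mean TPM its share was 9.19% and 16.54%, and that of Sept9-203, which begins in the same region, 5.21% and 13.41%. The split between these forms is therefore uncertain in replicate 2, with a posterior SD of 72.91 reads for Sept9-204. Their region as a whole held 23.8% and 35.8% of Sept9 TPM. Sept9-201 was listed at 0 in replicate 1 and took 17.44% in replicate 2, from 232.94 counts. The region farthest upstream, at position 117199661 on chromosome 11, was listed at 0 counts in both libraries. Sept9 was the member with the fewest reads in replicate 1, 391, which limits its shares there.

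Sept6 used the same start for both of its main forms, which differ in their 3′ parts. Sept6-201, of 4673 bases, took 82.66% and 46.77%. Sept6-203, of 1845 bases with a shorter 3′ untranslated region, took 8.07% and 44.24%, from 75.82 and 259.19 counts. The gene's TPM was nearly the same in the libraries while its scaled counts were not, as given below, and the mix of long and short forms enters the length by which TPM is divided.

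Sept14 and Sept2 kept similar shares in both libraries. Sept14-202, a processed transcript without a coding sequence, took 49.76% and 46.58% of Sept14 TPM. The coding Sept14-203 took 37.76% and 34.25% of TPM and had the highest share of reads, 51.8% and 46.5%. Sept14-201 took 12.48% and 19.17%. Sept2-216, of 3219 bases, took 44.86% and 43.10% of Sept2 TPM and 65.8% and 61.6% of its reads. It has 1083 coding bases, as have Sept2-201 and Sept2-214. From posterior mean TPM the share of Sept2-216 was 37.92% and 34.16%, with a posterior SD of 1037.92 and 397.80 reads. The short Sept2-207 (477 bases) took 23.00% and 18.10%, Sept2-206 (552 bases) 12.39% and 14.94%, and Sept2-201 11.27% and 10.06%. GENCODE M21 divides Sept2 between 2 gene identifiers, 1 of which holds Sept2-216, whereas the deposited tables count 1 gene.

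**Figure D3:**
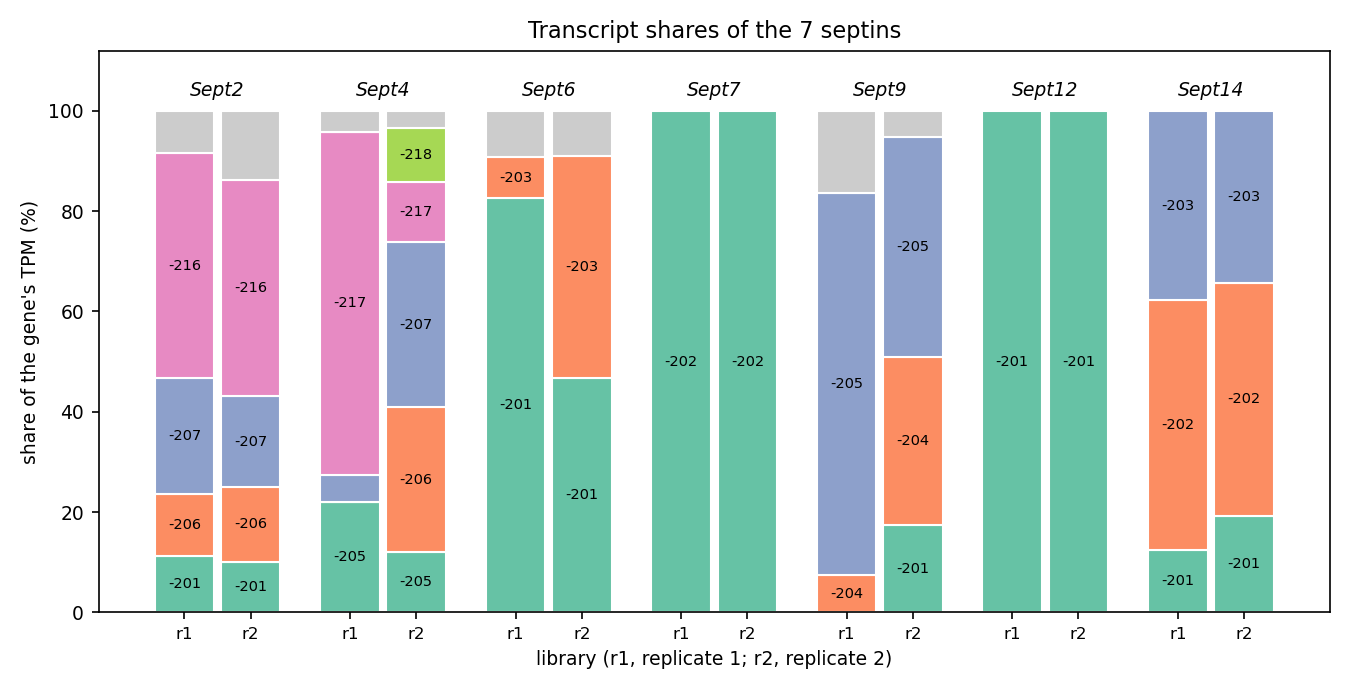
Share of each gene's TPM (vertical axis, %) taken by its transcripts, in replicate 1 (r1) and replicate 2 (r2), with transcripts of 10% or more in either library coloured and labelled by number, and all others in grey. Sept7 and Sept12 show 1 transcript each, Sept2 and Sept14 look alike in both libraries, and Sept4 passes from 68.56% to 12.10% for transcript 217.

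The libraries were compared by the log2 ratio of replicate 2 over replicate 1 of scaled expected counts, with 0.5 added to each. With 1 library a side this describes the 2 libraries, and there is no test. Of the 7 septins, 5 differed 2-fold or more, against 56.4% of all 18581 genes whose mean was at least 10 counts, so the count is near the background. Of all these genes 32.5% were past 2-fold higher and 23.9% lower in replicate 2. Sept9 (1.99, 1.82 to 2.16), Sept4 (1.86, 1.72 to 2.00) and Sept12 (1.83, 1.75 to 1.90) were higher in replicate 2. Sept7 (-1.95, -2.05 to -1.86) and Sept2 (-1.24, -1.29 to -1.19) were lower. Sept6 (-0.77, -0.87 to -0.66) and Sept14 (-0.70, -0.88 to -0.53) did not reach 2-fold. Set against genes of like GC content, as follows, the sign turned for Sept9, Sept2 and Sept14. The median of the 7 was -0.70, beside 0.01 for all genes.

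Scaling by plain library totals moved the median of all genes to 0.29 and took Sept2 to -0.96, leaving 4 members past 2-fold, beside 52.3% of all genes. Of all genes past 2-fold, 57.6% were higher in replicate 2, and 69.6% with plain totals. No septin among the 7 changed sign between these scalings.

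The direction of a septin went with the base composition of its transcript. GC content of the transcript with the highest mean TPM was 39.3% for Sept7, 41.1% for Sept2, 45.6% for Sept14, 46.6% for Sept6, 49.8% for Sept12, 54.4% for Sept4 and 56.1% for Sept9. Across the 7 genes the Spearman correlation of GC content with the log2 ratio was 0.96, and across 18396 genes with known GC content it was 0.89. All these genes share the same 2 libraries, and genes are not replicates, so no p is given. Genes were then sorted into 100 bins of GC content, and each septin was set against the median log2 ratio of its bin.

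Sept14 lay on the median of its bin, with a difference of 0.01. The difference was 0.15 for Sept2, 0.23 for Sept4, -0.21 for Sept6, -0.36 for Sept7 and -0.60 for Sept9. Placed by the transcript of highest mean TPM, Sept12 alone of the 7 stood more than 2-fold from its bin, at a difference of 1.70. Of all genes, 22.1% stood that far. The bin of Sept12 rests on Sept12-201, whose 3′ untranslated region of 1487 bases has 45.7% GC and whose coding part has 54.2%. The 2 other coding models of Sept12 in M21 have 1227 and 1295 bases and 55.9% and 55.6% GC. The bins of those values have medians of 2.53 and 2.40, above the 1.83 of Sept12. The place of Sept12 beside genes of like GC content therefore depends on the transcript model. So does that of other members. Sept4 (1.86) was placed by Sept4-207, while the bin of Sept4-217 has a median of 0.80. Sept6 (-0.77) was placed by Sept6-201, while the bin of Sept6-203 has a median of 0.78. For Sept2 (-1.24) the bin of Sept2-207 has -0.12, and for Sept9 (1.99) that of Sept9-201 has 3.10. Each of these medians lay more than 2-fold from the gene's own ratio. The part that GC content played in the differences between the libraries was not tested.

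**Figure D4:**
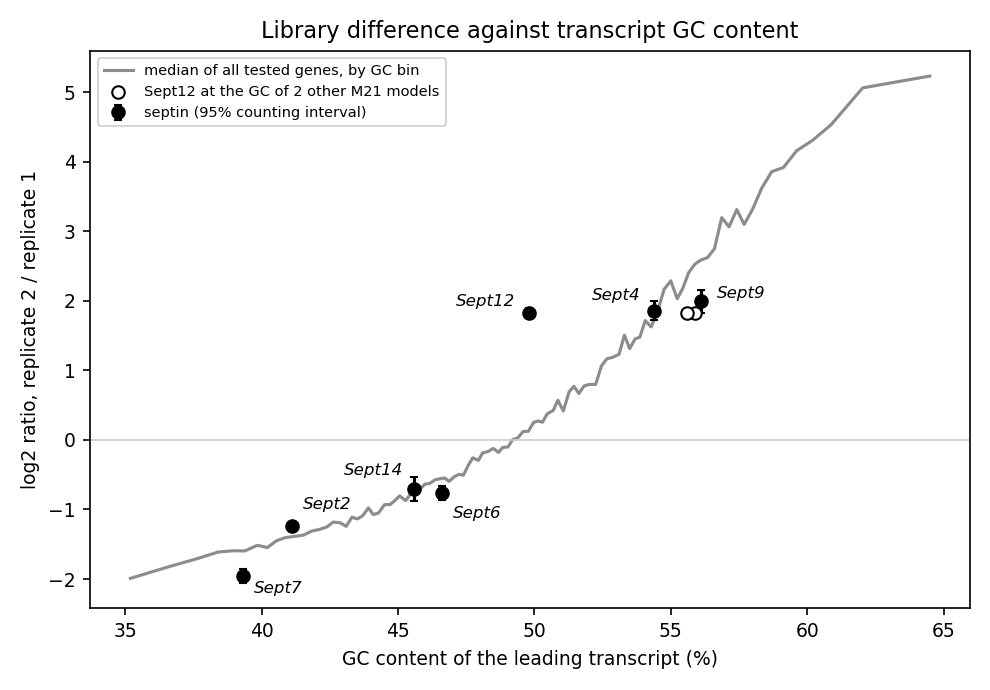
Log2 ratio of replicate 2 over replicate 1 (vertical axis) against the GC content of the leading transcript (horizontal axis, %), with the 7 septins as black points with 95% counting intervals and the median of all tested genes in 100 GC bins as a grey line. Of the septins, 6 lie within 0.60 of the line and Sept12 lies 1.70 above it, while at the GC content of 2 other M21 models (open circles) Sept12 would lie below it.

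Other genes of the annulus and of septin binding were measured beside the 7. Of 6 annulus genes, Dnajb13, Fam92a, Slc26a8 and Cftr were detected in both libraries. Dnajb13, a chaperone family protein of the sperm tail, reached 136.72 and 289.26 TPM. Fam92a (newer name Cibar1), which helps to place the annulus, reached 109.34 and 55.60 TPM, and its partner Cby3, under the limit in replicate 1, 0.54 and 29.60 TPM. Slc26a8, an anion transporter of the annulus, reached 58.74 and 79.46 TPM, and the chloride channel Cftr 20.58 and 9.30 TPM. Past 2-fold between the libraries were 5 of the 6, 2 higher and 3 lower in replicate 2, with a median log2 ratio of -0.61. As with the septins, this is to be read beside the 56.4% of all genes, and all 6 lay within 0.37 of the median of their GC bin.

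Of 9 septin partner genes, 6 were detected in both libraries. Spag4, a nuclear envelope protein of spermatids that binds Sept12, reached 12.44 and 346.53 TPM. Cdc42ep3, of a family of Cdc42 effectors that bind septins, reached 182.02 and 112.17 TPM, and the GTPase Cdc42 itself 161.57 and 76.47 TPM. Anln, the anillin that brings septins to the cleavage furrow, reached 21.55 and 12.15 TPM. Of the 9, 8 were past 2-fold, 5 higher and 3 lower in replicate 2, with a median log2 ratio of 2.32. These counts stand beside 56.4% of all genes past 2-fold, 32.5% higher and 23.9% lower. Set against the median of its GC bin, Cdc42ep2 (1.17 TPM or less in both libraries) stood past 2-fold, at 2.06, and the other 8 partners did not. Sept12 and Spag4 were both higher in replicate 2, while the differences from the medians of their GC bins were 1.70 and 0.44.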

How the data were processed

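PolyA RNA was measured in 2 technical libraries of 1 testis (labelled size range 350 to 450). Per the deposited notes beside the tables, the authors quantified genes and transcripts from transcriptome alignments on mm10 with annotation M4, separately per library. Which aligner and which quantifier they used is not given in the sources used here. Deposited values were expected counts (estimated reads, with a posterior SD), TPM and FPKM (both scaled for effective length and depth), posterior mean TPM, and, in percent, the part of a gene's TPM that each transcript takes.

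Names, positions, transcript sequences and GC content came from GENCODE M21 (GRCm38), by identifier without version, for 42462 of 43346 genes. GC content was known for 99.0% of the tested genes, and 53 of 55 septin transcripts have the same length in M21. Other table entries (spike-ins and numeric identifiers) were left out. They held 1.56e-05% and 0.0% of the counts.

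Library sizes were scaled by TMM (factors 0.907 and 1.10) in edgeR 4.0.16 on rounded expected counts. Log2 ratios had 0.5 added and were called at 2-fold among genes whose mean was at least 10 counts. Intervals are exact (Clopper-Pearson, 95%). The ratio script was tested on simulated counts. With 1 group of technical libraries no condition was tested and no p-value was computed. Coding sequences were aligned globally in Biopython 1.88. Other tools were R 4.3.3, DESeq2 1.42.0 (size factors, as an alternative), Python 3.11.15, numpy 2.4.6, pandas 2.3.3, scipy 1.17.1 and matplotlib 3.10.9.

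The members and lists were chosen with earlier results of these data known. The text names all 13 septins, each member transcript with a share of 10% or more in either library, and the 4 genes of highest mean TPM of the annulus and septin partner lists. Marker lists are given by their counts and sums, with single markers named after their values were seen. Genes that overlap a septin, Sept9-203 and Cftr were also named after their values were seen. Alternatives changed detection limits, unit, scaling, filter, fold, GC treatment and the libraries used. The limit of 1000 bases on transcripts was added after seeing the data.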

Additional observations from a re-analysis of the deposited data

How the results depend on the processing

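The ratio of Sept4 to Sept2 depended on the library and on how length was treated. Its mean log2 value of -1.39 over the libraries became -2.94 on expected counts without length scaling and -2.30 with transcripts of 1000 bases or more, and both libraries then lay on 1 side. Leaving out 1 library at a time gave -2.81 to 0.02. Sept4 and Sept2 also differ in GC content (54.4% and 41.1%), and the medians of their GC bins were 1.62 and -1.39. For Sept12 and Sept9 these medians were 0.12 and 2.59. The part of GC content in these ratios was not tested. For Sept14 over Sept6 the mean of 0.33 turned to -1.46 on expected counts without length scaling and to -0.60 with transcripts of 1000 bases or more. Leaving out 1 library at a time gave 0.13 to 0.52. The number of members past 2-fold fell from 5 to 1 when each was set against genes of like GC content. Placed by the transcript of highest mean TPM, 4 of them lay within 2-fold of the median of their GC bin. With other transcripts of some members this differed, as given above. The ratio of Sept12 to Sept9 stayed called in every alternative that used both libraries, with means of 2.17 to 2.71. With 1 library alone it was 2.85 or 2.54, but the rule for a call needs both libraries and cannot be applied there. All 7 septins stayed detected except with a limit of 5 TPM, where 6 did, Sept9 being at 4.98 TPM in replicate 1.

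The share of Sept4, Sept12 and Sept14 was 16.0% or 46.4% with 1 library alone, and a single value for this testis cannot be given more closely. In replicate 1 Sept4 and Sept9 had the lowest depth of the 7, 538 and 391 counts, which limits their transcript shares there. In replicate 2 Sept14 had the lowest, 401 counts, which limits its shares likewise. Shares of a gene with many reads can be uncertain too. In replicate 1 the posterior SD was 1037.92 reads for Sept2-216 and 885.02 for Sept2-215. A transcript listed at 0 is a model estimate, and can carry a wide posterior SD, as for Sept4-201 (23.97 and 33.83 reads). No paired analysis was possible because there is 1 group. No second animal was measured here.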
